A study of Schistosoma mansoni with 12 samples.

Results

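R-praziquantel (R-PZQ) is the mirror-image form of praziquantel that carries most of the drug's action on schistosomes, the blood flukes that cause schistosomiasis. Its effect was measured in adult male Schistosoma mansoni by comparing 4 mRNA libraries of worms kept with R-PZQ against 4 libraries of worms kept with vehicle. These 8 libraries were chosen by their labels from 12 in the series, and the members described are the 1284 transcripts, from 1253 loci, that stand in at least 1 of the 3 tables deposited for this comparison, of 1928 transcripts in any of the 6 tables of the series. Of them 906 stood in the DESeq table, with 1010 in that of EBSeq and 596 in that of EdgeR, and 418 were in all 3, 392 in 2 and 474 in only 1. Because the tables list transcripts that passed the authors' own tests on these same 8 libraries, whether a listed transcript changed is not a finding. Of the 143 transcripts named below, 58 were picked after their values were seen, as examples of a group, and the rest follow the rule given with the processing. A few other listed transcripts are mentioned only beside these and are not in that count.

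All worms were males of the Puerto Rican-1 strain, 49 days old, and each library came from a pool of about 41 whole animals. The R-PZQ group received 0.5 µM of the drug and the vehicle group 1% DMSO, and both were exposed for 18 hours. The treatment labels of the R-PZQ libraries do not state a DMSO content. Another group of 4 libraries, given 0.5 µM S-praziquantel (S-PZQ, the other enantiomer), enters below only as values set side by side. The samples do not state whether the pools of a group came from separate infections or cultures, so p-values measure the spread between these libraries. In whole worms, fewer cells of a type and less RNA per cell cannot be told apart.

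Praziquantel lets calcium into the worm, contracts its muscle and damages the tegument, the living syncytial skin through which the parasite feeds and faces the host. Small heat shock proteins bind partly unfolded proteins, ubiquitin tags proteins for destruction by the proteasome, and early growth response factors are transcription factors that many animal cells switch on soon after a stimulus.

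Size factors, the authors' measure of relative depth, ran from 0.781 in vehicle replicate 2 to 1.181 in vehicle replicate 1, and the listed transcripts held between 2486290 and 3714344 counts per library. Levels below are normalized counts, meaning counts divided by the size factor. Means carry the SD over 4 libraries, log2 changes are the log2 ratio of the R-PZQ mean to the vehicle mean and carry an SE, and the adjusted p is that of the edgeR quasi-likelihood test with Benjamini-Hochberg adjustment over all 1284 transcripts. A transcript is said to have risen or fallen where that value is under 0.05.

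By this test 1184 of the 1284 listed transcripts (92.2%) were called, of which 601 rose (46.8% of those listed) and 583 fell (45.4%), and the 100 not called stood only in the EBSeq table. The changes were mostly small. The median rise was 1.51-fold, and for falls the vehicle level was 1.46 times the R-PZQ level at the median. Of the rises 110 were 2-fold or more and 35 were 4-fold or more, and of the falls 51 and 17. The groups did not overlap, with the 4 R-PZQ values all above the 4 vehicle values, in 554 transcripts (43.1%), and all below in 471 (36.7%), together 79.8%. Listing favours such separation, so these shares are only the background for the counts below. The spread within groups was larger for vehicle, with a median coefficient of variation of 15.99% against 11.6% for R-PZQ.

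**Figure D1:**
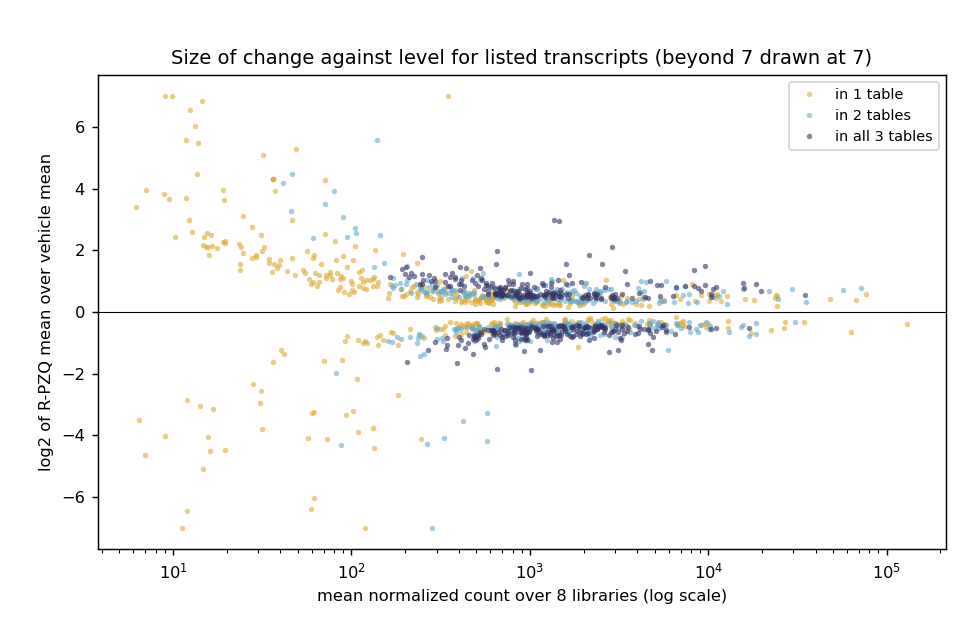
Log2 of the R-PZQ mean over the vehicle mean against the mean normalized count over the 8 libraries (log axis) for the listed transcripts, coloured by how many of the 3 tables list them. Transcripts in all 3 tables lie in 2 bands on either side of 0, while those in 1 table spread to large changes at low levels.

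Vehicle replicate 1 stood nearest to the R-PZQ group. Of the 601 rises it was the highest vehicle library in 296 (49.3%), and of the 583 falls it was the lowest in 348 (59.7%). For R-PZQ replicates the shares were more even, with R-PZQ replicate 3 the lowest in 188 rises, followed by replicate 4 in 167. Without vehicle replicate 1 the median fold of the same transcripts was 1.58 for rises and 1.52 for falls, and the test called 1158 transcripts in place of 1184. The labels do not set this library apart, and the part of its position in the results was not tested.

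**Figure D2:**
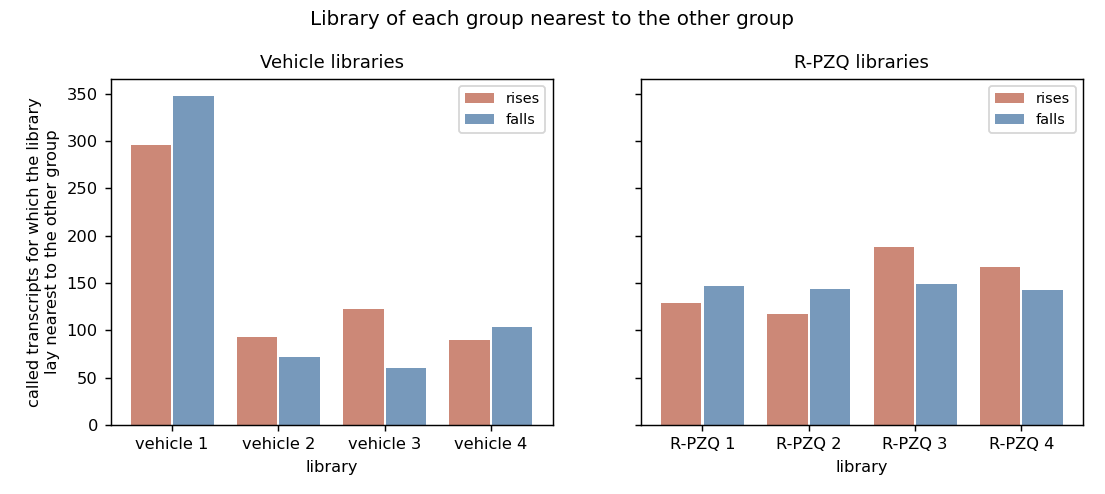
Number of called transcripts for which each library lay nearest to the other group, with rises and falls as separate bars. Vehicle replicate 1 reaches 296 rises and 348 falls, while the other vehicle libraries stay between 60 and 122 and the R-PZQ libraries between 117 and 188.

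Small heat shock proteins, which hold partly unfolded proteins in solution, rose together at neighbouring loci. HspB1 (Smp_049240, XM_018794684.1) stood at 652, 240.0, 235 and 206 in vehicle replicates 1 to 4 and at 1862, 3019, 2649 and 2719 in R-PZQ replicates 1 to 4. Every treated library was above every vehicle library, and vehicle replicate 1 was the highest control. The change was 7.69-fold (log2 change 2.94 ± 0.48, edgeR adjusted p = 0.0017). An HSP20/alpha crystallin protein (Smp_049250) stood at 7008, 4968, 3574 and 4623 in vehicle and 12420.2, 16702, 14389.5 and 13326 in R-PZQ (log2 change 1.49 ± 0.23, edgeR adjusted p = 0.002). The groups did not overlap, and the change was 2.82-fold. Smp_186020, annotated only as a heat shock protein, went from 1744, 692, 908 and 990.1 to 3991, 5871, 4357 and 4683 (log2 change 2.12 ± 0.33, edgeR adjusted p = 0.0017), again without overlap and with vehicle replicate 1 the highest control.

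The major egg antigen, first described in S. mansoni eggs and a relative of the alpha crystallins, was listed with 4 transcripts of 1 locus (Smp_049300.1). Their summed level was 2161, 1492, 1058 and 750.1 in vehicle and 5872, 6573, 6593 and 6328 in R-PZQ, and the sums of the groups did not overlap. The treated libraries lay close together while the vehicle libraries spread widely. XM_018794696.1 went from 306 ± 161 to 2419 ± 241 (log2 change 2.98 ± 0.39, edgeR adjusted p = 0.0015) and XM_018794699.1 from 932 ± 445 to 3369 ± 286 (log2 change 1.85 ± 0.35, edgeR adjusted p = 0.0041). XM_018794700.1 rose from 43.5 ± 36.9 to 246 ± 36.8 (log2 change 2.50 ± 0.62, edgeR adjusted p = 0.028). It lost its call on omitting vehicle replicate 3 and R-PZQ replicates 1 and 3, each alone, where its log2 change was 2.35 to 2.46. XM_018794697.1 had 109, 0, 44.1 and 182 in vehicle and 260.1, 379, 348 and 244 in R-PZQ, with no overlap, but was not called (edgeR adjusted p = 0.079). How RSEM shares reads among transcripts of 1 locus can move these 4 values against each other, and reads may also be shared with transcripts that are not listed.

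All 4 heat shock loci lie on 1 chromosome, within a run of 12 protein-coding loci of the ASM23792v2 annotation, and no other locus of that run was listed. Of the 6 listed transcripts of the small heat shock list, 5 rose, 0 fell and 1 was not called, with a median edgeR log2 change of 2.19 against 0.30 over all listed transcripts. With Smp_186020, which the list of other chaperones holds, these made 7 transcripts at 4 loci.

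**Figure D3:**
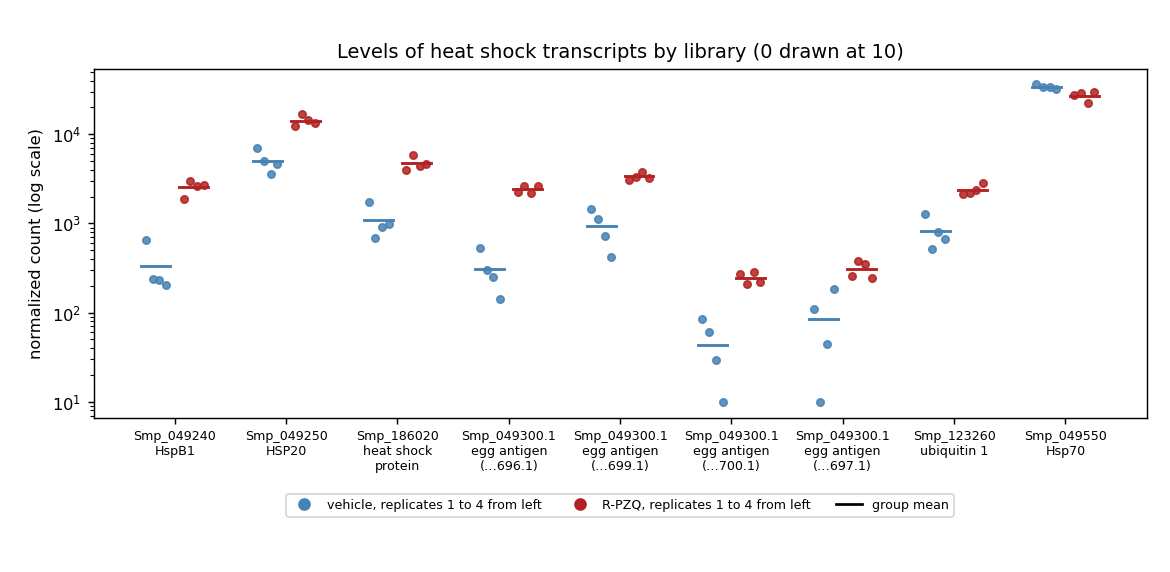
Normalized counts (log axis, 0 drawn at 10) of the 7 transcripts of the neighbouring heat shock loci, of ubiquitin 1 and of Hsp70 in each library, with bars at the group means. For the heat shock loci and ubiquitin 1 all R-PZQ points lie above all vehicle points, and for Hsp70 they lie below.

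Other chaperones moved the other way more often. Of 17 listed, 5 rose, 10 fell and 2 were not called (median edgeR log2 change -0.42). Hsp70 (Smp_049550), the abundant ATP-driven chaperone, was at 36216, 34009.9, 34174 and 32543 in vehicle and at 27714, 28845, 22629 and 29702 in R-PZQ (log2 change -0.33 ± 0.09, edgeR adjusted p = 0.018). The groups did not overlap, and the level of every treated library lay below the lowest control of 32543. Partners of Hsp70 fell with it, among them DNAJ proteins, which deliver clients to Hsp70. A DNAJ homolog of subfamily B (Smp_078800) had a log2 change of -0.42, a subfamily C member (Smp_138680.1) of -0.64, and the Hsp70 binding protein (Smp_066950) of -0.45. Another subfamily C member (Smp_049600.1) had the largest fall of the list at log2 -2.19 (270.2, 129, 53.6 and 249 in vehicle, 62.3, 12.6, 54.0 and 25.1 in R-PZQ), and its groups overlapped. The prefoldin subunits Smp_030290 and Smp_009390.1, which hand new actin and tubulin to the chaperonin, changed by -0.66 and -0.42. Tubulin-specific chaperone E (Smp_150440) rose (log2 change 0.71 ± 0.08, edgeR adjusted p = 0.0047). Of 2 transcripts of protein disulfide-isomerase ER-60 (Smp_079770.1), which helps form disulfide bonds in secreted proteins, XM_018799452.1 rose from 214 ± 104 to 519.9 ± 68.6, while XM_018799451.1, at 22588 ± 1474 and 25690.5 ± 862, was not called (edgeR adjusted p = 0.072).

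In the ubiquitin and proteasome list 18 of 34 rose, 15 fell and 1 was not called. Ubiquitin 1 (Smp_123260) had 1275, 521, 805 and 662 in vehicle and 2134, 2189.6, 2348 and 2851 in R-PZQ (log2 change 1.54 ± 0.31, edgeR adjusted p = 0.0033). No library overlapped, and vehicle replicate 1 was again the highest control. Beside it rose a SUMO ligase (Smp_153010, log2 0.84), which attaches a ubiquitin relative, ubiquilin (Smp_010290, 0.49), which shuttles tagged proteins, and both listed transcripts of CDC48 (Smp_018240.1, 0.36 and 0.39), the ATPase that pulls tagged proteins out of complexes. By product name, all 3 listed subunits of the core particle of the proteasome, where proteins are cut, fell. Subunit beta 2 (Smp_074500.1) went from 2415 ± 494 to 1421 ± 42.7, alpha 7 (Smp_076230) from 5493 ± 947 to 3662 ± 231 and alpha 4 (Smp_070930) from 3065 ± 288 to 2207 ± 185, all without overlap. Of 5 listed subunits of the 26S regulatory particle, which admits tagged proteins to the core, 3 rose (log2 0.25 to 0.31) and 2 fell (-0.44 and -0.42), and 2 of the rises held in each fit without 1 library. These subunits were grouped by name after their values were seen. In the list of autophagy and lysosome proteins 4 of 7 rose and 2 fell, with rises of the lysosomal Pro-Xaa carboxypeptidase (Smp_002600.1, log2 0.88) and of cystinosin (Smp_169870, 0.86), the cystine carrier of the lysosome. Without vehicle replicate 4 that count of rises was 2.

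Transcription factors made up 48 listed transcripts, of which 35 rose, 11 fell and 2 were not called (median edgeR log2 change 0.54). The early growth response protein Smp_094930 had 337, 241, 281 and 468 in vehicle and 965, 1021, 926 and 961 in R-PZQ (log2 change 1.55 ± 0.22, edgeR adjusted p = 0.0017). The treated values lay close together and none reached the controls. Another locus with that product (Smp_134870) had 6634, 4359.8, 3386 and 4477 and 11527, 15424, 10326 and 10746 (log2 change 1.35 ± 0.25, edgeR adjusted p = 0.0031), also without overlap. Both were named after their values were seen.

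Basic helix-loop-helix proteins, a family that directs cell fate in many animals, showed the largest fold rises of the list from low control levels. Smp_132810 had 40.7, 2.56, 15.3 and 17.1 in vehicle and 129.6, 162, 196 and 152 in R-PZQ (log2 change 3.08 ± 0.62, edgeR adjusted p = 0.0064), and without vehicle replicate 1 its log2 change was 3.78. Smp_067430 had 47.4, 5.12, 29.8 and 29.2 and 153, 170.0, 234 and 174 (log2 change 2.71 ± 0.47, edgeR adjusted p = 0.0058). In each of these 2, vehicle replicate 1 was the highest control and replicate 2 the lowest. Homeobox factors also rose, with knotted-1 (Smp_146580) at 107 ± 40.8 and 233 ± 44.9, and cut-like 1 (Smp_143510) at 126 ± 52.5 and 305 ± 57.2. Among the falls was a nuclear hormone receptor (Smp_000340), from a family of ligand-gated transcription factors, with 307, 282, 399.7 and 512 in vehicle and 179, 119.7, 112 and 227 in R-PZQ (log2 change -1.23 ± 0.32, edgeR adjusted p = 0.0072). Outside that list, a co-activator related to crsp77, a subunit of the Mediator complex that links such factors to RNA polymerase (Smp_073610.1), fell from 131 ± 68.3 to 33.4 ± 20.8, and this call ended on omitting vehicle replicate 4 (log2 -1.56).

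Chromatin proteins and RNA-processing proteins leaned to rises as well. In the chromatin list 23 of 31 rose and 6 fell (median 0.47), and in the splicing and RNA-binding list 38 of 52 rose and 12 fell (median 0.42), against 46.8% and 45.4% of all listed transcripts. That lean is one of counts, since the summed level of the splicing and RNA-binding list did not rise. It was 108502 ± 7205 in vehicle and 101798 ± 5613 in R-PZQ, with overlap. The SETDB1-type histone methyltransferase (Smp_043580), which silences chromatin, went from 94.9, 56.3, 73.1 and 59.5 to 206, 176, 201 and 204 (log2 change 1.47 ± 0.19, edgeR adjusted p = 0.0044), with a tight treated group. A mixed-lineage leukemia (MLL) methyltransferase (Smp_140390.1), which marks active genes, had 0, 17.5, 28.5 and 0 in vehicle and 128, 171, 80.7 and 143 in R-PZQ. Its log2 change of 3.51 became 4.49 without vehicle replicate 3, and its call ended on omitting R-PZQ replicate 2 (log2 3.35). A serine/arginine-rich splicing factor (Smp_032320.1) rose from 533 ± 30.8 to 1081 ± 177 and ribonuclease III (Smp_142510.1), an enzyme that cuts double-stranded RNA, from 267 ± 57.5 to 554 ± 153, both without overlap.

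The stem cell and cell cycle list, matched on product names, gave 12 rises, 1 fall and 2 not called among 15 (median 0.60). Cell division itself was not measured, and members of the list need not be confined to dividing cells. DNA topoisomerase I (Smp_033050.1), which relaxes DNA ahead of polymerases, had 952, 296, 772 and 647 in vehicle and 1383, 1224, 1181 and 1209 in R-PZQ (log2 change 0.91 ± 0.30, edgeR adjusted p = 0.015), and its lowest control was vehicle replicate 2. Topoisomerase II (Smp_065840) went from 1386 ± 108 to 1900.3 ± 218, histone H4 (Smp_053390) from 3878 ± 571 to 5274 ± 519 and cyclin G2 (Smp_153920) from 588 ± 129 to 975 ± 79.2. Histone H2A (Smp_176670) was scarcer, at 114 ± 52.7 and 216 ± 29.9, and lost its call on omitting vehicle replicate 1 and R-PZQ replicates 3 and 4, each alone (log2 0.83 to 0.90). Of the 12 rises, 8 held in each fit that left out 1 library, against 973 of all 1184 calls. These fits reuse the libraries by which the transcripts were listed, so a kept call is not independent support.

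Collagens, the fibres of the worm's extracellular matrix, rose at several loci. Of 15 transcripts in the matrix and metallopeptidase list 10 rose, 4 fell and 1 was not called (median 0.75). The collagen chain Smp_170340 stood at 4558, 2918, 2474 and 2661 in vehicle and at 6373, 6239, 6864 and 5694 in R-PZQ (log2 change 1.00 ± 0.23, edgeR adjusted p = 0.0047), with vehicle replicate 1 the highest control and still below the lowest treated library. The collagen locus Smp_170330 changed by 0.86 from 5237 ± 1207 to 9493 ± 986, Smp_123830 by 0.86 and Smp_144910 by 0.75. Smp_170330 and Smp_170340 are adjacent protein-coding loci with the same product name. Whether they are parts of 1 gene or share reads was not tested. Matrix metallopeptidase-9 (Smp_162300), named for an enzyme class that cuts matrix, had 437, 142, 192 and 369 in vehicle and 627, 938, 800.0 and 701 in R-PZQ (log2 change 1.43 ± 0.38, edgeR adjusted p = 0.0072). Both groups varied, and they did not overlap. A peptidase of the M12B subfamily (Smp_199750) went the other way, from 195 ± 36.0 to 105 ± 13.5.

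Of the adhesion and junction transcripts 8 of 14 rose and 6 fell. Their summed level was nonetheless lower with R-PZQ, at 22560 ± 1086 in vehicle and 19841 ± 636 in R-PZQ, without overlap. The innexin Smp_117170, a gap junction subunit, had 39.8, 11.5, 33.2 and 28.2 in vehicle and 71.6, 158, 86.8 and 60.6 in R-PZQ (log2 change 1.74 ± 0.46, edgeR adjusted p = 0.015), and plakoglobin (Smp_134000), which ties cadherins to the cytoskeleton, went from 122 ± 21.1 to 217 ± 52.1. Innexins at other loci moved both ways, with a rise of Smp_141390 (log2 0.61) and a fall of Smp_141290.1 (-0.48). The signalling proteins of development gave 5 rises and 7 falls among 12. A secreted frizzled-related protein (Smp_068680), which binds Wnt ligands, rose from 48.5 ± 32.7 to 155 ± 14.2. A Wnt-related ligand (Smp_156540) had 615, 544, 646 and 667 in vehicle and 321, 375, 319 and 397 in R-PZQ (log2 change -0.81 ± 0.10, edgeR adjusted p = 0.0031), noggin (Smp_099440), an antagonist of bone morphogenetic proteins, a log2 change of -0.99, and an EGF-like domain protein (Smp_135210) of -1.08. None of the last 3 overlapped between groups.

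Calcium proteins split evenly, with 7 rises, 7 falls and 1 not called among 15. All listed transcripts split alike, with 46.8% rises and 45.4% falls, so this split does not set calcium proteins apart. The pore subunit of an L-type calcium channel (Smp_124530), which admits calcium across the surface membrane, had 2853, 4078, 2768 and 5572 in vehicle and 1625, 2842, 2401 and 1796 in R-PZQ (log2 change -0.82 ± 0.31, edgeR adjusted p = 0.016). R-PZQ replicate 2 lay above vehicle replicate 3, so the groups overlapped. A beta subunit of voltage-gated channels (Smp_141660), which brings the pore to the membrane, had 424, 448, 532 and 519 and 362, 119.7, 350.2 and 286 (log2 change -0.78 ± 0.30, edgeR adjusted p = 0.033), without overlap, but lost its call on omitting vehicle replicates 3 and 4 and R-PZQ replicate 4, each alone (log2 -0.80 to -0.73). Orai-1 (Smp_076650.1), the store-operated channel pore, went from 121 ± 30.4 to 62.8 ± 20.7 with overlap, and its call ended on omitting vehicle replicates 2 and 4 and R-PZQ replicates 1, 2 and 4, each alone (log2 -0.91 to -0.84). The ryanodine receptor (Smp_163570), which releases calcium from inner stores, had 28036, 33915, 32221 and 32032 in vehicle and 36154, 39010.0, 40355 and 41198 in R-PZQ (log2 change 0.31 ± 0.07, edgeR adjusted p = 0.015), and all treated libraries were above all controls. The annexin Smp_207040, a calcium-dependent membrane binder, went from 98.8 ± 32.1 to 178 ± 45.8 and lost its call on omitting vehicle replicates 3 and 4 and R-PZQ replicates 1, 2 and 4, each alone (log2 0.66 to 0.90). Of 5 other ion channels 4 fell and none rose, though 1 was called a rise without vehicle replicate 4. Bestrophin (Smp_091820), an anion channel family, changed by -0.62, and aquaporin-3 (Smp_005740) by -0.53.

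Muscle transcripts gave 9 rises, 3 falls and 1 not called among 13. Filamin (Smp_000100), which cross-links actin, had 5016, 3259.9, 3964 and 3150.0 in vehicle and 7756, 7375, 6495 and 6395 in R-PZQ (log2 change 0.86 ± 0.17, edgeR adjusted p = 0.0044). The titin loci Smp_163920 and Smp_105020, parts of the giant spring protein of muscle, changed by 0.69 and 0.50, both without overlap. Tropomyosin, which gates myosin binding on actin, went in both directions at 2 loci. Smp_031770.1 rose from 529.6 ± 188 to 870.0 ± 123 and lost its call on omitting R-PZQ replicates 1 and 4, each alone (log2 0.66), while XM_018791729.1 of Smp_085290.1 fell from 3534 ± 389.9 to 2642 ± 241. The other Smp_085290.1 transcript was at 0, 0, 4.67 and 0 in vehicle and 0, 91.4, 0 and 12.9 in R-PZQ, so that most of its level came from R-PZQ replicate 2, and it was not called.

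The cytoskeleton and motor list gave 9 rises and 13 falls among 23. Its summed level was not lower, at 130753 ± 11928 in vehicle and 152192 ± 19074.5 in R-PZQ, with overlap. Bicaudal D-like protein (Smp_028070.1), an adaptor of dynein cargo, went from 3937, 10415, 8330.2 and 10889 to 3657, 2899, 3736 and 3961 in XM_018794141.1 (log2 change -1.24 ± 0.29, edgeR adjusted p = 0.007). Vehicle replicate 1 lay inside the treated range and the other controls far above it. Pericentrin (Smp_051510), a centrosome scaffold, showed the same order of controls with 2708, 4932, 4551 and 5289.9 in vehicle and 1809, 1831, 1696 and 2150.2 in R-PZQ (log2 change -1.22 ± 0.20, edgeR adjusted p = 0.0032), there without overlap. Centrosomal protein Cep63 (Smp_156520) rose from 36.8 ± 18.5 to 88.5 ± 12.3 and lost its call on omitting vehicle replicate 1 and R-PZQ replicates 1, 2, 3 and 4, each alone (log2 1.17 to 1.33). Without R-PZQ replicate 1, 2 or 3 the count of rises in this list was as low as 5.

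Transcripts of nerve signalling gave 5 rises, 4 falls and 6 not called among 15. Their summed level was lower with R-PZQ, at 25298 ± 383 in vehicle and 21326.5 ± 1240 in R-PZQ, without overlap. Synaptotagmin (Smp_150350), the calcium sensor of synaptic vesicles, had 557, 625, 576 and 632 in vehicle and 279, 242, 289.9 and 254 in R-PZQ (log2 change -1.17 ± 0.07, edgeR adjusted p = 0.001), with both groups tight and far apart. A second synaptotagmin (Smp_050630) rose from 1078 ± 96.3 to 1275 ± 44.7 and lost its call on omitting vehicle replicate 4 and R-PZQ replicate 2, each alone (log2 0.19 to 0.22). Synaptobrevin (Smp_055870), a vesicle fusion protein, changed by -0.48 without overlap. A sodium- and chloride-dependent neurotransmitter transporter (Smp_160360), which clears transmitter from the synapse, had 1186, 1860.4, 1728 and 1615 and 851, 953, 477 and 417 (log2 change -1.24 ± 0.31, edgeR adjusted p = 0.0061). Its treated libraries formed a higher pair, replicates 1 and 2, and a lower pair, all under the lowest control. A neuropeptide precursor (Smp_042120) went the other way, with 618, 309.9, 408 and 351 in vehicle and 694, 832, 1027 and 663 in R-PZQ (log2 change 0.93 ± 0.28, edgeR adjusted p = 0.0083), where vehicle replicate 1 came nearest to the treated values. A G-protein coupled receptor fragment (Smp_197700) rose from 29.8 ± 12.5 to 77.6 ± 21.2, and its call ended on omitting vehicle replicate 3 and R-PZQ replicates 1 and 2, each alone (log2 1.25 to 1.27). Without R-PZQ replicate 2 the count of rises was 3.

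The tegument surface list gave 9 rises, 12 falls and 1 not called among 22. The glucose transport protein Smp_105410, of the family that takes up host glucose across the surface, had 5982, 7175, 6808 and 4571 in vehicle and 3824, 2943, 1978 and 3244 in R-PZQ (log2 change -1.03 ± 0.23, edgeR adjusted p = 0.0055), without overlap. Tetraspanins, small surface proteins of which some are vaccine candidates, moved both ways. The TE736-like tetraspanin (Smp_194960) fell from 5850.3 ± 949 to 3614 ± 335, while tetraspanin Smp_041460 rose from 5275 ± 1776 to 9528 ± 1853 with overlap, and a CD63-like one (Smp_176870) from 23.7, 47.4, 16.2 and 30.2 to 120.2, 267, 97.3 and 152 (log2 change 2.44 ± 0.47, edgeR adjusted p = 0.0052). The surface membrane antigen Smp_195180 changed by -0.58 with overlapping groups, since vehicle replicate 1, at 18122, lay within the treated range. An ectonucleotide phosphodiesterase (Smp_104270), of a family that cleaves nucleotides outside the cell, rose from 21700.2, 14202, 12216 and 12323 to 25019, 24754, 22866 and 25246 (log2 change 0.70 ± 0.22, edgeR adjusted p = 0.0098). A cytoplasmic dynein light chain (Smp_051400), of a family found at the tegument, fell (log2 change -1.04 ± 0.16, edgeR adjusted p = 0.0029).

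Among 7 ABC transporters and detoxification transcripts 5 fell, 1 rose and 1 was not called, and the solute carriers gave 8 falls and 4 rises among 15. P-glycoprotein (Smp_170820), an ABC pump of foreign compounds, had 351, 579, 551 and 421 in vehicle and 270.4, 168, 214 and 172 in R-PZQ (log2 change -1.21 ± 0.23, edgeR adjusted p = 0.0045), all treated values below all controls. The related pump smdr2 (Smp_055780) had 1762, 859, 686 and 936 and 2218, 1345, 1621 and 1861, with overlap, and its rise lost its call on omitting vehicle replicates 2, 3 and 4 and R-PZQ replicates 1 and 4, each alone (log2 0.57 to 0.70). A zinc transporter (Smp_069170), which moves metal ions out of the cytosol, rose from 851 ± 192 to 1785 ± 692 with overlap, since R-PZQ replicate 3 lay below vehicle replicate 1. Without vehicle replicate 3 the count of rises among solute carriers was 2.

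Gut peptidases, which digest host blood proteins, gave 5 rises and 1 fall among 6. Hemoglobinase (Smp_075800), an asparaginyl peptidase, stood at 81976, 45329.9, 41552 and 43566 in vehicle and at 96358, 85806, 88833 and 90193 in R-PZQ (log2 change 0.77 ± 0.26, edgeR adjusted p = 0.011). Vehicle replicate 1 lay far above the other controls and just below the treated libraries. At the 2 cathepsin B loci vehicle replicate 1 was also the highest control, with 62945, 38090.5, 32536 and 39621 and 65763, 66705, 84803 and 63811 for Smp_103610 and 5436, 2183, 1963 and 2584 and 5445, 6091, 5940.5 and 6159 for Smp_085010, where in both the lowest treated library lay just above vehicle replicate 1. Cathepsin D (Smp_013040.1) changed by 0.46. 

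Micro-exon gene (MEG) products, venom-allergen-like proteins and other secreted proteins gave 10 rises, 0 falls and 1 not called among 11 (median 0.93). The treated values lay wholly above the controls in only 2 of the 11, against 43.1% of all listed transcripts. The micro-exon gene product MEG-13 (Smp_127990) went from 279, 228, 106 and 130.03 to 365, 348, 421 and 349 (log2 change 1.00 ± 0.32, edgeR adjusted p = 0.014), MEG-8 (Smp_171190) from 1426 ± 686 to 2726 ± 467 and MEG-4 (Smp_085840.1) from 6413 ± 1817 to 11086 ± 1750.2. MEG-14 (Smp_124000) had 3214, 2012, 906 and 805 and 4492, 3673, 3579.7 and 2569, with vehicle replicate 1 inside the treated range, and lost its call on omitting vehicle replicates 2, 3 and 4 and R-PZQ replicates 1, 2 and 3, each alone (log2 0.81 to 1.12). In MEG-8 and MEG-4, too, the groups overlapped because vehicle replicate 1 lay above the lowest treated library. Leaving out vehicle replicate 1, the highest control in each of the gut and MEG products named here, ended none of their calls. Its omission widens each of these differences, so the kept calls do not show what part that library has in them.

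Vesicle traffic and energy metabolism leaned to falls. Of 38 listed transcripts of small GTPases and vesicle traffic 30 fell and 6 rose (median -0.43). A Rab (Smp_129350), of the family that steers vesicles, went from 966, 1274, 1596 and 1430.3 to 545, 641, 458 and 544 (log2 change -1.27 ± 0.18, edgeR adjusted p = 0.0017), without overlap. A GTP-binding protein of the HflX family (Smp_016550.1) was an exception, with 65.7, 37.1, 20.8 and 0 and 311, 187, 85.1 and 142. Its log2 change of 2.55 became 3.23 without vehicle replicate 1 and it lost its call on omitting vehicle replicates 2 and 3 and R-PZQ replicates 1, 2 and 4, each alone (log2 2.16 to 2.65). Without R-PZQ replicate 1 the count of rises in the list was 3.

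Mitochondrial transcripts gave 14 falls and 2 rises among 17 (median -0.43). A gamma subunit of ATP synthase (Smp_033670.1) had 2263, 2766, 2875 and 3065 in vehicle and 1675, 1779, 1761 and 1804 in R-PZQ (log2 change -0.64 ± 0.09, edgeR adjusted p = 0.0034), cytochrome C1 (Smp_005290) of the respiratory chain changed by -0.61, and an inner membrane import protein (Smp_038630) by -0.84. Another locus, annotated as ATP synthase gamma-related (Smp_072350), rose (log2 0.36). Glycolysis gave 5 falls and 2 rises. Glyceraldehyde-3-phosphate dehydrogenase (Smp_056970.1) went from 138608, 172419, 141519 and 136315 to 111045, 126305, 103536 and 113138 (log2 change -0.38 ± 0.10, edgeR adjusted p = 0.012), and phosphoglucomutases fell (Smp_180530.1, log2 -0.81, and Smp_085150, -0.56), while hexokinase (Smp_043030), the entry enzyme, rose from 13857 ± 409 to 18480.4 ± 2699.7. Ribosomal proteins gave 12 falls and 1 rise among 13 (median -0.52), with the mitochondrial subunits L2 (Smp_199450, -0.70) and L27 (Smp_037120, -0.69) and the cytoplasmic S9 (Smp_180000, -0.52) among the falls. The 1 rise was not called without R-PZQ replicate 1, 3 or 4. Translation factors and tRNA synthetases gave 12 falls and 5 rises among 18. Prolyl-tRNA synthetase (Smp_025260) rose from 95.2 ± 33.8 to 188 ± 41.1 but lost its call on omitting R-PZQ replicate 3 (log2 0.82), and a selenocysteine elongation factor (Smp_176630) rose by log2 0.70. Without R-PZQ replicate 3 the count of rises was 3.

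Redox proteins fell in 7 of 10 and rose in 2. Thioredoxin Trx1 (Smp_008070), which reduces oxidised proteins, had 15980.0, 26961, 23162 and 25651 in vehicle and 11674, 13632, 16033 and 14232 in R-PZQ (log2 change -0.72 ± 0.18, edgeR adjusted p = 0.0076), where vehicle replicate 1 lay just below the highest treated library. Thioredoxin Trx2 (Smp_054470) went the other way and rose (log2 0.60). A Keap1-like protein (kelch-like ech-associated protein, Smp_085380), whose relatives in mammals sense electrophiles, rose from 899.8 ± 121 to 1732 ± 444. Lipid transcripts gave 12 rises and 12 falls among 25, and the count of rises was 7 without vehicle replicate 3. Enzymes of ceramide synthesis were among the rises, with serine palmitoyltransferase 2 (Smp_079380) from 306 ± 80.3 to 656 ± 282 and ceramide synthase (Smp_042440) from 237 ± 122 to 522 ± 79.1, the latter losing its call on omitting R-PZQ replicate 1 (log2 1.04). A fatty acid elongation enzyme (Smp_130370) had 105, 66.6, 76.5 and 184 and 269, 526, 199.99 and 216, of which R-PZQ replicate 2 was the highest. A sterol esterase (Smp_146180) rose from 47.4, 15.4, 27.2 and 1.01 to 75.9, 60.9, 149 and 75.2. Its log2 change of 1.99 became 2.64 without vehicle replicate 1, and its call ended on omitting vehicle replicates 2 and 3 and R-PZQ replicates 1, 2, 3 and 4, each alone. Kinases and phosphatases gave 23 rises and 36 falls among 63, with a serine/threonine kinase (Smp_090890) at a log2 change of 0.94 and a histidine kinase (Smp_157170) at -1.003. Of 7 apoptosis transcripts 5 fell and 1 rose, with a programmed cell death protein (Smp_058350) at -0.55 and defender against cell death (Smp_020770) at -0.44. The 1 rise was not called without vehicle replicate 3 or 4 or R-PZQ replicate 2 or 4. By their names these products do not all promote cell death. An inhibitor of apoptosis protein (Smp_076370) also fell, from 38195 ± 4714 to 30529 ± 1912, with overlap. The falls therefore give no direction of cell death, which was not measured.

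**Figure D4:**
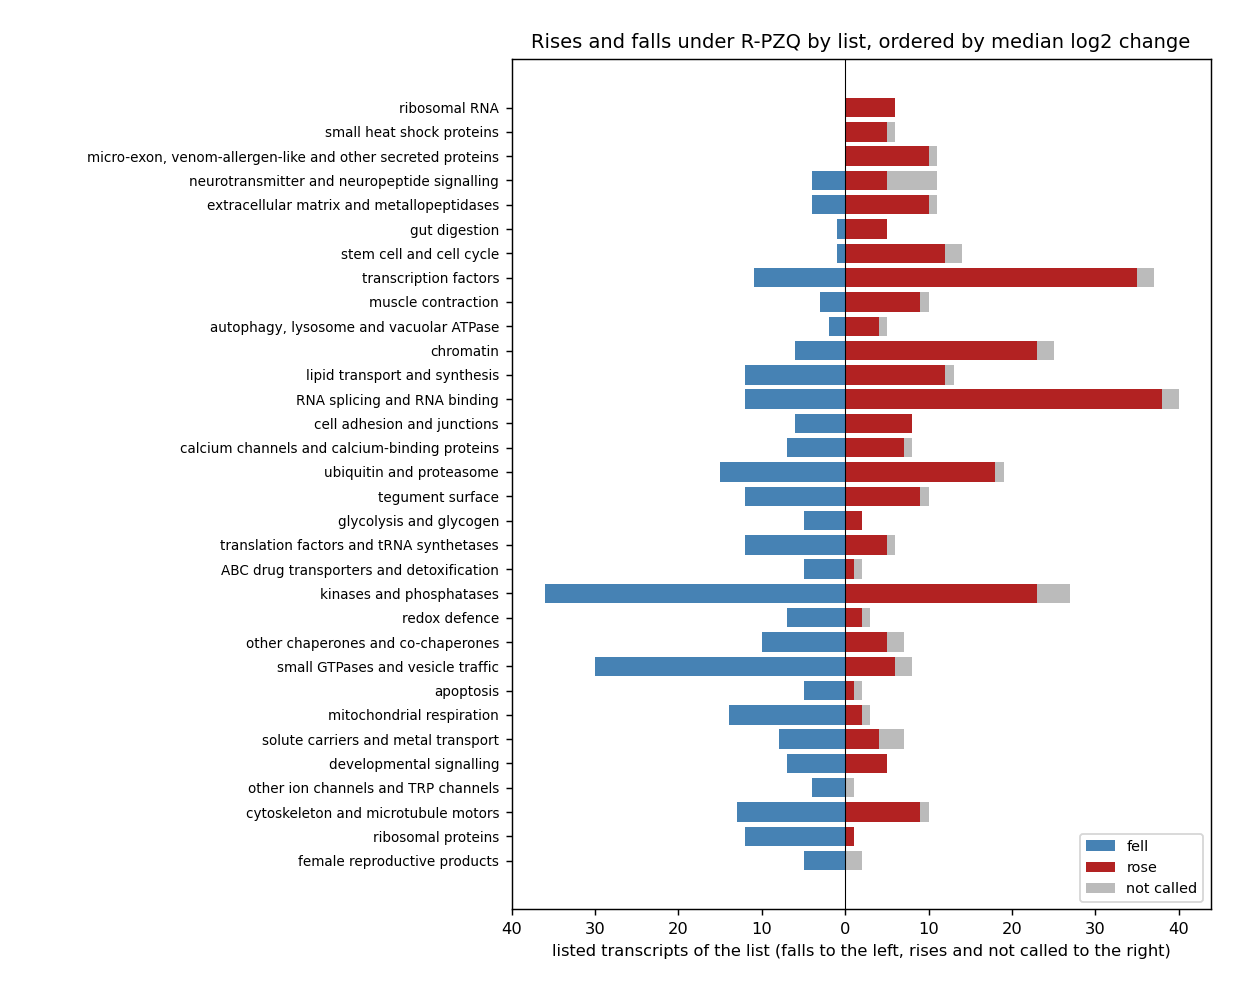
Number of listed transcripts that fell (left), rose or were not called (right) in each list, with lists ordered by their median edgeR log2 change. Ribosomal RNA, small heat shock and secreted proteins stand at the top with 0 falls, and ribosomal proteins near the foot with 12 falls and 1 rise. A list with 1 transcript is not drawn, and 22 transcripts count in more than 1 list.

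No product name was annotated for 444 listed transcripts (34.6%), and of these 196 rose and 203 fell. Among those that rose was Smp_174240.1, with 0.576, 0, 21.98 and 0 in vehicle and 374, 258, 269.8 and 183 in R-PZQ (edgeR adjusted p = 0.0063). Its control level came almost wholly from vehicle replicate 3, and the other controls held too little for a fold without that library. Smp_206250 rose from 264 ± 208 to 1048 ± 317 and Smp_195070 from 19.3 ± 13.3 to 103 ± 57.3. Outside these 444, a transcript with the product name receptor for activated PKC (Smp_102040.1), a ribosome-bound scaffold, also rose. It had 13.4, 0, 25.6 and 0 in vehicle and 81.3, 211, 208 and 96.3 in R-PZQ. Its log2 change of 3.94 became 5.06 without vehicle replicate 3.

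Unnamed transcripts of neighbouring loci fell together. Smp_152960 had 585, 1029, 1209 and 1278 in vehicle and 301, 186, 331 and 307 in R-PZQ (log2 change -1.87 ± 0.28, edgeR adjusted p = 0.0025), and Smp_057410 had 740.2, 1752, 1737 and 2178 and 463, 396, 417 and 463 (log2 change -1.88 ± 0.28, edgeR adjusted p = 0.0029). Together with Smp_152970, which had 141, 273, 389 and 437 and 101, 109, 103 and 90.9 (log2 change -1.62 ± 0.31, edgeR adjusted p = 0.0057), they form 3 consecutive protein-coding loci of 1 chromosome. In each of the 3 vehicle replicate 1 was the lowest control, and no treated library reached it. Another unnamed transcript, Smp_170150, fell from 595 ± 102 to 188 ± 45.5. Over the whole set, 109 pairs of adjacent protein-coding loci were both called, of which 42 rose together, 28 fell together and 39 moved in opposite directions, with 51.7% of the 956 placed loci having risen.

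At 28 loci more than 1 transcript was listed, 59 in all. The transcripts of a locus were called in the same direction at 19 loci and in opposite directions at 3, and at 6 loci 1 or more was not called. At the serine/arginine-rich splicing factor locus Smp_036270.1 the transcript XM_018794202.1 had 264, 311, 145 and 79.1 in vehicle and 570.2, 331, 579 and 407 in R-PZQ (log2 change 1.24 ± 0.43, edgeR adjusted p = 0.016), while XM_018794200.1 went from 5157 ± 675 to 3958 ± 214 (log2 change -0.38 ± 0.10, edgeR adjusted p = 0.012). Neither overlapped between groups, and the sum of both went from 5357 ± 754 to 4430 ± 292. At the clathrin heavy chain locus Smp_154420.1, whose product coats vesicles, XM_018793886.1 went from 7379 ± 1182 to 9523 ± 847 and lost its call on omitting vehicle replicates 2 and 4 and R-PZQ replicate 1, each alone (log2 0.28 to 0.35). The other clathrin transcript had 0, 82.0, 22.4 and 9.76 in vehicle and 0, 0, 0 and 3.30 in R-PZQ. Its call ended on omitting vehicle replicate 2 and R-PZQ replicates 1, 2 and 3, each alone. At the unnamed locus Smp_017080.1 XM_018790276.1 had 0, 0, 1.91 and 0 and 66.2, 0, 13.2 and 12.6 and was called a rise. That call ended without R-PZQ replicate 1. XM_018790278.1 of the same locus fell from 1148 ± 228 to 599 ± 294.

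Some of the largest changes came from 1 or 2 libraries. In 41 transcripts 1 library held over 50% of the summed level, most often vehicle replicate 1 with 14, and 34 of the 41 stood only in the EBSeq table. A heterogeneous nuclear ribonucleoprotein transcript (Smp_056810.1) was at 953 in vehicle replicate 4 and at 0.138 or below in the other 7 libraries. The unnamed Smp_120640.1 was at 468 in vehicle replicate 4, at 5.58 in R-PZQ replicate 2 and at 0 elsewhere. Both were called falls, and both calls ended on omitting vehicle replicate 4 and R-PZQ replicates 1, 2, 3 and 4, each alone. A programmed cell death transcript (Smp_072110.1) had 0.0593, 467, 105 and 453 and 0, 0, 47.8 and 0 and was not called (edgeR adjusted p = 0.052).

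Products of the female reproductive tract checked the labelled sex. Of 7 listed, 5 fell, 0 rose and 2 were not called. Their summed level was 6202 in vehicle replicate 1, 69.1 in replicate 2, 1059 in replicate 3 and 72.6 in replicate 4, and ran from 52.2 to 247 in R-PZQ. Vehicle replicates 1 and 3 were thus high and replicates 2 and 4 within the treated range. An eggshell protein (Smp_191910) had 2755, 7.68, 331 and 23.2 in vehicle and 51.2, 154, 32.8 and 28.2 in R-PZQ, and its log2 change of -3.55 became -0.86 without vehicle replicate 1. The eggshell precursor protein (Smp_000430.1) had 1975, 35.9, 496 and 0 and 35.2, 53.8, 42.3 and 14.6, with a log2 change of -4.10 that became -2.28. For 2 further eggshell synthesis proteins, Smp_000390 and Smp_077890, the log2 changes of -6.04 and -4.31 became -3.20 and -1.72 without that library. Without vehicle replicate 1, or without any single R-PZQ library, the count of falls in the list was as low as 1. A further 8 listed transcripts outside the list met a pattern set after these values were seen (vehicle replicate 1 at least 100 and over 5 times replicates 2 and 4, replicate 3 above those), among them a superoxide dismutase precursor (Smp_095980) and a tetraspanin (Smp_155310.1), neither of which was called. Of the 13 transcripts with this pattern 7 were called, all among the 17 falls of at least 4-fold. Whether these transcripts came from female tissue in the pools, and whether their source bears on other differences, was not tested.

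Ribosomal RNA rows, which an mRNA library should hold little of, were all called rises (6 of 6) and summed to between 1157 and 1597 in vehicle and to 1140, 5076, 5199 and 3209 in R-PZQ. R-PZQ replicate 1 was therefore below the lowest control. The row 18s-13.1 had 0, 0, 0.434 and 0.0302 in vehicle and 0, 2766, 3.03 and 0 in R-PZQ, so that its level came almost wholly from R-PZQ replicate 2. Its call ended without that library and without vehicle replicate 3. The row 18s-25.1 had 1581, 1157, 1376 and 1521 and 1140.2, 1907, 4665 and 3035, and its call ended on omitting vehicle replicates 2, 3 and 4 and R-PZQ replicates 3 and 4, each alone (log2 0.53 to 0.97). The other 4 rows held identical values in every library and count as 1 measurement. Leaving out vehicle replicate 1, 2 or 4 or R-PZQ replicate 2, 3 or 4 brought the count of rises to as low as 1. Whether the amount of rRNA in a library moved other levels was not tested.

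**Figure D5:**
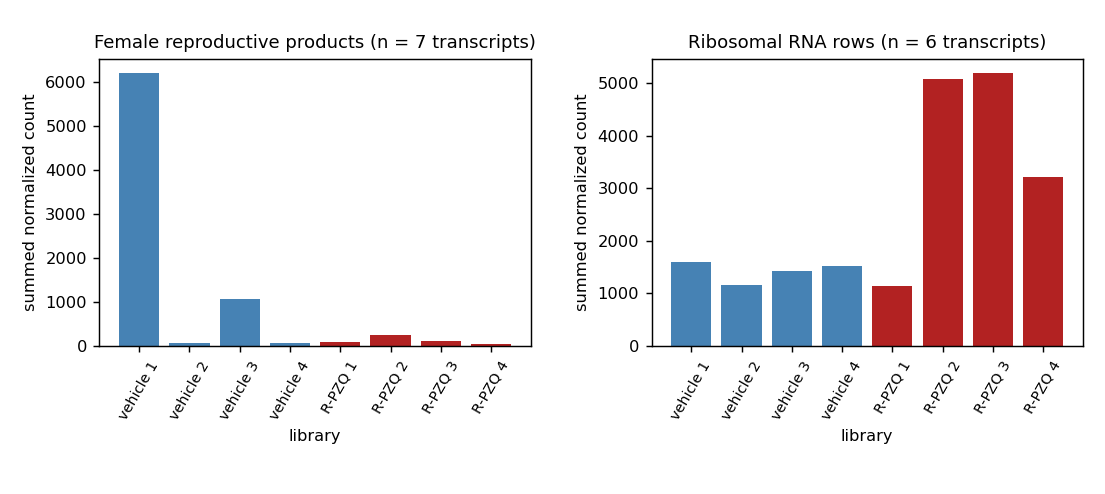
Summed normalized count per library of the 7 listed female reproductive products (left) and the 6 rRNA rows (right). Vehicle replicates 1 and 3 hold the female products, with 6202 and 1059, and R-PZQ replicates 2 to 4 hold the high rRNA sums of 5076, 5199 and 3209.

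Of the 1284 transcripts, 264 also stood in a table of S-PZQ against vehicle, and their S-PZQ levels can be set beside those above. Each of them passed a test of the authors for that comparison, so that S-PZQ differs from vehicle in them is not a finding. Those given below are examples, and no share over the 264 is given. Both comparisons use the same 4 vehicle libraries, so they are not independent, and levels are on the scale of the R-PZQ comparison. Ubiquitin 1 (Smp_123260) was at 816 ± 328 in vehicle, 2381 ± 326 with R-PZQ and 1379 ± 267 with S-PZQ, and collagen Smp_170340 at 3153 ± 954, 6293 ± 481 and 4922 ± 947. For both, the S-PZQ mean lay between the other means. The S-PZQ means of the unnamed neighbours lay between the others too, at 915 ± 131 for Smp_057410 and 533 ± 60.6 for Smp_152960, and the unnamed Smp_174240.1 was at 99.2 ± 49.6. The L-type calcium channel subunit Smp_124530 was at 2303 ± 565 with S-PZQ against 2166 ± 561 with R-PZQ, and ATP synthase gamma (Smp_033670.1) at 1606 ± 133 against 1755 ± 56.2. For the ryanodine receptor (Smp_163570) the means lay on opposite sides of the vehicle level of 31551 ± 2492, at 39179 ± 2209 with R-PZQ and 20389.8 ± 1608 with S-PZQ. These differences between enantiomers were not tested here.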

How the data were processed

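Messenger RNA was sequenced from pools of male worms with a stranded kit, per the labels' protocols. The submitters' processing notes name RSEM 1.2.31, the aligner Bowtie2 2.2.9, the trimmer Trimmomatic 0.36 and the packages edgeR 3.20.8 and DESeq2 1.18.1. Build and annotation release are not given in the sources used here. Deposited tables hold expected counts per transcript and library, which are estimates that need not be whole, and the EdgeR and DESeq tables hold counts rounded by the authors. The EBSeq table also holds a normalized signal made by the authors, from which the size factors were taken. The DESeq table's normalized values, rounded by the authors to whole numbers and treated as a score, served only for an alternative scaling. Fold changes and p-values in the deposited tables were not used. Each table lists only transcripts that passed the authors' test, so the full depth of each library is unknown here and a call is a description of listed rows.

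Expected counts were rounded and fitted with the quasi-likelihood test of edgeR 4.0.16 in R 4.3.3 over all 1284 transcripts of the 8 libraries, with library sizes set from the size factors and Benjamini-Hochberg adjustment at 0.05. No low-count filter was applied. DESeq2 1.42.0, other scalings, a minimum mean of 50, a threshold of 0.01, a replicate block and the omission of each library were alternatives. The test was checked on simulated data. No pair of libraries agreed within sampling noise. Names came from the deposited annotation, and locus order from the ASM23792v2 gene table. Reads shared by transcripts of 1 locus or by near-identical copies were split by the authors' counting, so such values are uncertain one by one.

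The members and lists were chosen with earlier results of these data known. Named transcripts were the 8 largest rises and falls with a product name and the 3 largest without one, among called transcripts with a mean of at least 50, no overlap and a place in at least 2 tables. To these came every small heat shock transcript, for each list with 3 or more called members the 2 largest called changes with a mean of at least 50, the 5 largest changes among transcripts in 1 table, and loci with opposite calls. The other 58 were chosen after their values were seen.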

Additional observations from a re-analysis of the deposited data

Results flagged for a closer look

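In 28 of 286 groups of 4 libraries, 1 library lay far from the others by Dixon's test. The test's rate of about 1 in 20 holds for unselected groups of normally distributed values. Here many transcripts were picked for large changes, and some groups hold 0 in all but 1 library, which flags that library whatever its value. The count therefore cannot show whether outlying libraries are more frequent than by chance. No explanation was tested for any of them.

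Vehicle replicate 1 stood apart at 652 for HspB1 (Smp_049240), 81976 for hemoglobinase (Smp_075800), and 2755, 437 and 579.9 for the eggshell products Smp_191910, Smp_000390 and Smp_077890. Vehicle replicate 2 stood apart at 4145 for defender against cell death (Smp_020770), 2619.7 for mitochondrial ribosomal protein L2 (Smp_199450) and 172419 for glyceraldehyde-3-phosphate dehydrogenase (Smp_056970.1). In vehicle replicate 3 it was 21.98 for the unnamed Smp_174240.1, 1.91 for Smp_017080.1, 4.67 for the tropomyosin transcript XM_018791731.1 and 0.434 for the row 18s-13.1. In vehicle replicate 4 it was 953 for Smp_056810.1 and 468 for Smp_120640.1.

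Among R-PZQ libraries, replicate 1 stood apart at 10785 for the clathrin transcript XM_018793886.1. Replicate 2 did so at 188 for Smp_195070, 91.4 for tropomyosin XM_018791731.1, 5.58 for Smp_120640.1, 176 for the SETDB1-type methyltransferase (Smp_043580) and 2766 for 18s-13.1. Replicate 3 did so at 149 for sterol esterase (Smp_146180), 1575 for topoisomerase II (Smp_065840), 6.35 for Smp_000390, 0.138 for Smp_056810.1, 2281 for tropomyosin XM_018791729.1, 84803 for cathepsin B (Smp_103610) and 47.8 for Smp_072110.1. Replicate 4 did so at 3.30 for the clathrin transcript XM_018793888.1.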

How the results depend on the processing

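The count of 1184 called transcripts was 1184 with the size factors of the DESeq table, 1183 with TMM over the listed transcripts (a shift of -0.0014 in the median log2), 1233 with DESeq2 (which left 9 adjusted p-values undefined and shared 1179 calls in the same direction) and 1160 of 1201 with a minimum mean of 50. It was 418 where only transcripts of all 3 tables were fitted, with 206 rises and 212 falls, because fewer were tested, and 535 at a threshold of 0.01, with 242 rises and 293 falls. Leaving out 1 library gave 1059 to 1158 calls, with 527 to 589 rises and 526 to 569 falls. Replicate numbers do not pair the samples by the labels, and the correlations of same-numbered deviations were -0.11, -0.15, 0.08 and 0.09. With a replicate block the count was 1101, with 548 rises and 553 falls, and 12 of the 139 called named transcripts lost their call. Of those 139, 111 kept their call in each of the 8 fits without 1 library, as did 973 of all 1184 calls. Without vehicle replicate 4 edgeR's fitted log2 change of Smp_056810.1 became 0 and that of Smp_120640.1 3.52 (adjusted p = 1.0 and 0.41 by edgeR), since nearly all of their level stood in that library. In the other fits without 1 library these fitted values, which near 0 counts depend on the prior count and bound no fold, were -11.39 to -10.89 and -9.92 to -5.97. Low levels and the 4 libraries per group limit the precision of the smallest transcripts, and full depth is unknown because the tables hold listed rows only.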
